A study of Homo sapiens and Mus musculus with 20 samples.

Results

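The genes described here are the 7 cyclin-dependent kinase inhibitor genes of the CIP/KIP family (CDKN1A, CDKN1B and CDKN1C) and the INK4 family (CDKN2A, CDKN2B, CDKN2C and CDKN2D), together with the 3 D cyclin genes (CCND1, CCND2 and CCND3). They are 10 of the 20046 protein-coding genes in the annotation, chosen by name. Their accessible regions were the 126 regions, of 252173 found in SW480 cells, that overlapped a gene body or the 20 kb on either side of it; 6 of the 126 lay in the windows of both CDKN2A and CDKN2B, which are neighbours. The study asked how the short-chain fatty acids propionate and butyrate act on chromatin in colorectal cancer cells, and the data used here are ATAC-seq, in which a transposase cuts and tags open DNA. SW480 is an established human colorectal adenocarcinoma line that carries mutant p53. In the propionate experiment 3 libraries were labelled as treated with 10 mM sodium propionate (NaPr), and in the butyrate experiment 3 were labelled as treated with 1 mM sodium butyrate (NaBu). Each experiment had its own 3 untreated (0 mM) libraries, labelled with another date than those of the other experiment, so doses and dates differ between the acids and their values are only set side by side. Treatment lasted 12 to 16 h and each reaction used 50000 cells by the Omni-ATAC protocol. The study's text names the doses as the sample labels do, while the series' design text lists them in the opposite order. Nothing in the labels says whether replicates came from separate cultures, and p-values therefore measure the spread between these libraries, which may be technical.

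D cyclins bind CDK4 and CDK6 and start the phosphorylation of the retinoblastoma protein RB, which releases E2F factors and lets cells enter S phase. INK4 proteins bind CDK4 and CDK6 and block their assembly with D cyclins, while CIP/KIP proteins bind whole cyclin-CDK complexes, above all those of CDK2. Butyrate inhibits histone deacetylases, and CDKN1A, which encodes p21, is the classic gene it induces in colon cancer cells, through GC boxes just upstream of the start that the factor Sp1 binds.

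For each library the authors deposited a list of peaks, each with the enrichment of tags at its summit over the local background as a fold and as -log10 p. The value used here is the percentile rank of a region among the regions with a peak in the same library, by -log10 p, from 0 for the weakest to 100 for the strongest. A region without a peak was set at 0, which says that it was not listed, not that it was closed. The lists held 108442 to 144398 intervals, and each deposited list ends at peak number 300000, so every list was cut at its weak end by length. In the NaBu experiment the treated lists were longer (126008 to 128955 intervals) than the untreated ones (108442 to 120971), and ranks over all regions rose with them: the median change of all tested regions was 2.92 points with NaBu and 0.53 points with NaPr. When regions without a peak were instead tied at their mean rank these medians were 0.42 and -0.21 points. The starts of 7 of 9 colon epithelial marker genes held a peak in all 12 libraries, KRT20 in 3 and CDX1 in 0, while 5 of 6 genes of other cell types held none and COL1A1 ranked at 82.2 to 94.9. The number of ATAC reads per library was not used here, so the lists' lengths and tag levels are the only measures of depth.

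The sequences that follow are those on which the results turn: the p21 promoter as the reference target of butyrate, the introns of CDKN1A and CCND1 whose ranks fell most with NaPr, the 2 alternative promoters of CDKN2A, of which only 1 held a peak, and the CCND3 promoter, whose rank fell with NaBu. Promoters are the 250 bases before the start in RefSeq (GRCh38.p14), which held 7 of the 10 genes (not CDKN1C, CCND1 or CCND2), read in the direction of the gene. The other stretches are the highest summit and the 100 bases on either side of it in hg38, on the plus strand. Capitals mark exact matches on either strand to GGGCGG (GC box), TGANTCA (AP-1), CACGTG (E-box) or TTTNGCGC (E2F), and overlapping matches were counted. A match is a string of letters, not a measured binding site.
CDKN1A promoter, chr6:36678464-36678713, plus strand: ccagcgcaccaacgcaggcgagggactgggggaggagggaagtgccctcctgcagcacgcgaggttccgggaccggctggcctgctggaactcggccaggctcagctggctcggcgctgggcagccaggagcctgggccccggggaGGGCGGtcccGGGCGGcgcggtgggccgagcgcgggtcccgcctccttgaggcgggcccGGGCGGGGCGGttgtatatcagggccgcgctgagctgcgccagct
CDKN1A intron, chr6:36682904-36683104: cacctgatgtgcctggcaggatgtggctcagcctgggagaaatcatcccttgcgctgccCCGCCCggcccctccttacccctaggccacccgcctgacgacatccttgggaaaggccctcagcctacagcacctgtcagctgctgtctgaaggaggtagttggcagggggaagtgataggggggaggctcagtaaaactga
CDKN2A promoter of the ARF transcript, chr9:21995325-21995574, minus strand: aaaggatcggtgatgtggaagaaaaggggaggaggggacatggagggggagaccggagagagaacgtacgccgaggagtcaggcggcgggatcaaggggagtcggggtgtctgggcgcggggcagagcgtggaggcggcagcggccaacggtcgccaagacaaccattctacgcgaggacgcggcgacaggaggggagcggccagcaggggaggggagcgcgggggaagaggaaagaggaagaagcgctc
CDKN2A promoter of the INK4A transcript, chr9:21974858-21975107, minus strand: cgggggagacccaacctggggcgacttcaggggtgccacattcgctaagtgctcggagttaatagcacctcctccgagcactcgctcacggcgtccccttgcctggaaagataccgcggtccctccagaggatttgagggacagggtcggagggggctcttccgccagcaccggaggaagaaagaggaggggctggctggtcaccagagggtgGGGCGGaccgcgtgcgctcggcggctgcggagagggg
CCND1 intron, chr11:69644395-69644595: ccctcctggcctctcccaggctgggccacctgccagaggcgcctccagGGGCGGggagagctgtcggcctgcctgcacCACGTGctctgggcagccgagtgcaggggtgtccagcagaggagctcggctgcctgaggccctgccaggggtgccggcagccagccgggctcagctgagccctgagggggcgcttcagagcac
CCND3 promoter, chr6:41941809-41942058, minus strand: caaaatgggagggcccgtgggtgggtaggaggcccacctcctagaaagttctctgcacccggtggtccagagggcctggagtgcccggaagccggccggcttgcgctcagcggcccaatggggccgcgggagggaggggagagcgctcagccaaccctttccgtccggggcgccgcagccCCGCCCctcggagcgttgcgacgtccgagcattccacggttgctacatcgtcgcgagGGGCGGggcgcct

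The p21 promoter held 4 GC boxes, the last 2 of them overlapping in 1 run, and none of the other 3 motifs. The CDKN1A intron, the CCND1 intron and the INK4A promoter each held 1 GC box, the CCND1 intron also 1 E-box, the CCND3 promoter 2 GC boxes, and the ARF promoter no match. In windows of that kind, a GC box was found in 28 (26.9%) of the 104 regions at the 10 genes that were tested in either experiment and in 14.2% of all 164146 such regions. An AP-1 string was in 9.62% of the regions at the 10 genes against 18.9% of all, an E-box in 7.69% against 4.01%, and an E2F string in 0.96% against 0.43%. In 35116 RefSeq promoters, from 250 bases before to 50 after the start, the shares were 44.95%, 7.71%, 7.26% and 1.79%.

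Of the 10 genes, 9 had a region over the start of the canonical transcript. The exception was CDKN2A: at the start that makes p16 INK4A (chr9:21974857) no peak lay within 1 kb in any of the 12 lists, and the only start of the gene with a peak was that of ARF, in a region 18.7 kb upstream. The order of the starts by rank was partly shared by the 4 groups, as the plot of ranks at gene starts shows. CDKN2B, which makes the INK4 protein p15, ranked highest in all 4 groups (group means of 95.6 to 98.3) and CDKN2D second (93.3 to 96.8), without overlap of their ranges except in the NaPr-treated libraries. CCND3, the ARF start, CDKN1A and CDKN1B followed with ranges that mostly overlapped between neighbours in the untreated groups. The low end differed between the experiments: CCND1 (53.9) and CCND2 (53.6) ranked lowest in the untreated libraries of the NaPr experiment and overlapped each other, whereas CDKN1C (51.5) ranked lowest in those of the NaBu experiment, where CCND1 stood at 81.9 and CCND2 at 79.4.

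**Figure D1:**
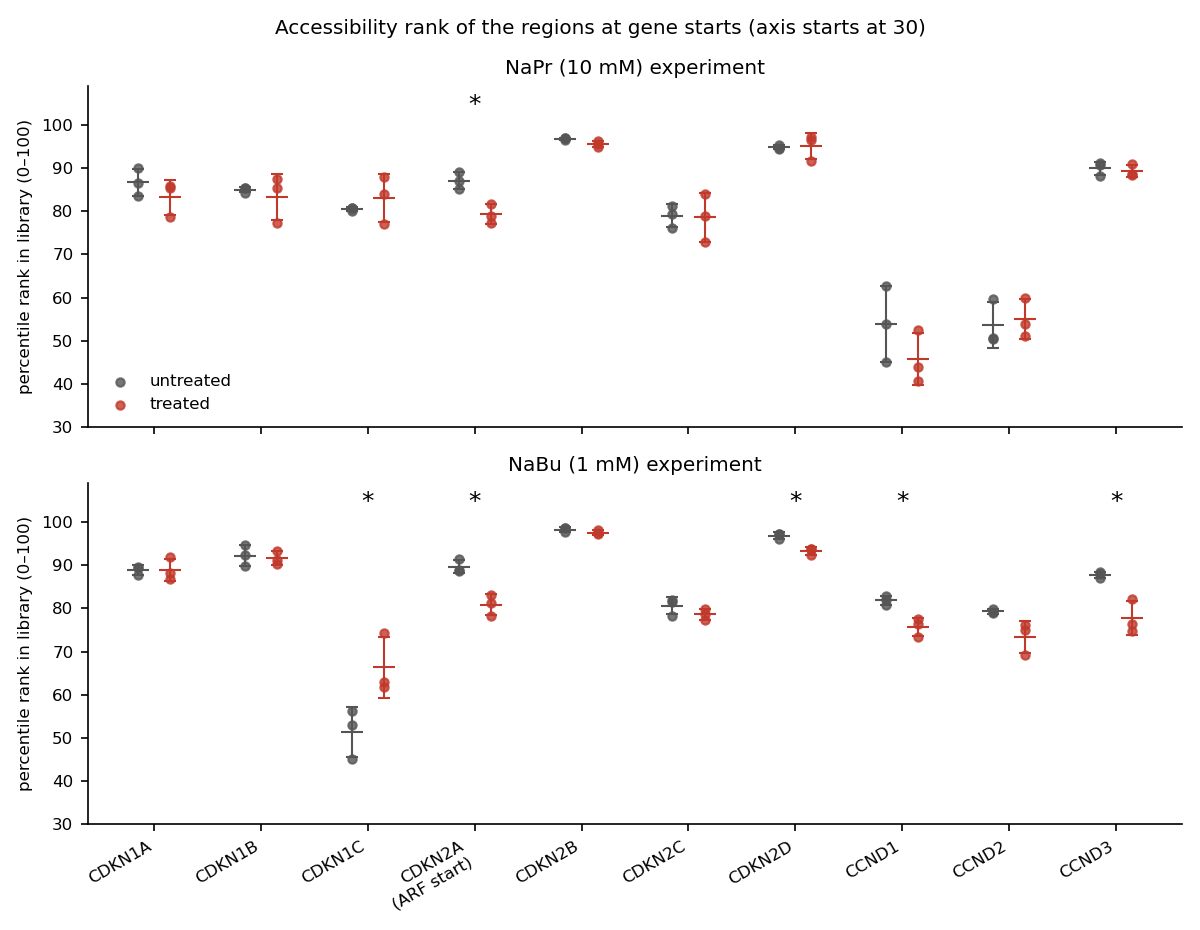
Percentile rank (0 to 100, axis from 30) of the region at the start of each gene, in the NaPr experiment above and the NaBu experiment below; points are libraries (3 per group, grey untreated, red treated), lines the mean and bars the SD, and asterisks mark limma calls. CDKN1A ranked between 78.6 and 91.8 in all libraries and carries no asterisk in either experiment, while the ARF start of CDKN2A was lower in every treated library than in every untreated one in both.

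With NaPr, 88 of the 126 regions had a peak in at least 2 of the 6 libraries and were tested, and 11 of them (12.5%) were called at an adjusted p below 0.05 by limma, 3 higher and 8 lower. Over all 124067 regions tested, 5.32% were called, 3.1% higher and 2.22% lower. At an unadjusted p below 0.05 there were 32 of the 88, against 23.1% of all regions. The median change of the 88 was -2.42 points. With NaBu, 81 regions were tested and 22 (27.2%) were called, 14 higher and 8 lower, against 37.1% of all 123730 regions (24% higher and 13.1% lower), and 36 passed the unadjusted p, against 47.4% of all. Their median change was -0.67 points, below the 2.92 points of all regions. Regions that hold the canonical start of a protein-coding gene were more often lower than higher in both experiments: 0.804% of them were called higher and 5.76% lower with NaPr, and 9.34% higher and 20.7% lower with NaBu.

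The balance of higher and lower calls depended on how unlisted regions and list length were treated. Of all calls, 58.3% were higher with NaPr and 64.7% with NaBu. With unlisted regions tied at their mean rank the shares were 51.4% and 51.3%, and with the top 100000 intervals of each list they were 49.5% and 51.3%. Tied, 4.82% of all regions were called higher and 4.57% lower with NaPr, and 19.1% higher and 18.1% lower with NaBu, while the 10 genes had 4 higher and 15 lower with NaPr and 13 higher and 17 lower with NaBu. A measure that does not use ranks, the tags at the summit recovered from the deposited fold and p and scaled to each library's median, was at hand only for regions listed in all 6 libraries. On it 12.2% of all regions were higher and 19.8% lower with NaPr, and 24.4% higher and 28.6% lower with NaBu (38.1% and 46.0% of calls higher); at the 10 genes 3 of 61 were higher and 23 lower with NaPr, and 1 of 52 higher and 28 lower with NaBu. Scaled by each library's background instead, 86.6% of all NaPr calls and 45% of NaBu calls were higher. Of the regions called at the 10 genes, 11 of 11 with NaPr and 20 of 22 with NaBu were called in the same direction with ties. On the tag scale 4 of the 7 and 9 of the 17 that had a value were. None was called in the opposite direction on either. With NaBu the tag scale called all 8 of the falls lower, while the only rise that it called was the region 12.3 kb upstream of CDKN1B.

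Most of the NaPr calls were lost whichever single library was left out. Of the 11 regions 5 remained called without untreated library 1 and 3 without treated library 1, and 0 without untreated library 2 or 3 or treated library 2 or 3, with adjusted p-values of at most 0.15 throughout. Of the 22 NaBu regions, 16 to 20 remained called when any 1 library was left out. The share of calls over all regions that remained without 1 library was not counted, so these losses cannot be set beside it. The plot of all region changes shows the calls by gene.

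**Figure D2:**
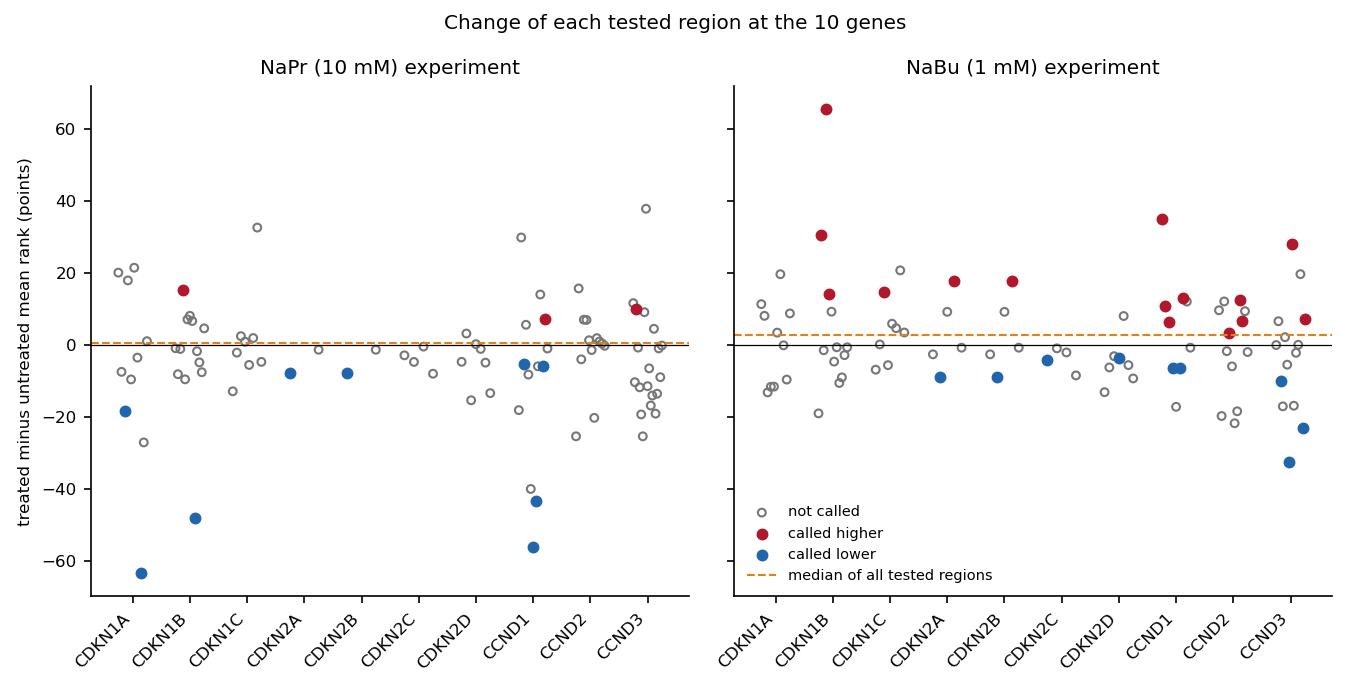
Change in mean rank (treated minus untreated, in points) of every tested region at each gene, with NaPr on the left and NaBu on the right; filled points were called by limma (red higher, blue lower), open points were not, and the dashed line is the median of all tested regions (0.53 and 2.92 points). The 2 largest changes were the fall of a CDKN1A intron with NaPr and the rise of a region upstream of CDKN1B with NaBu; regions shared by CDKN2A and CDKN2B are drawn under both.

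By family, the shares called are set beside those of all tested regions, 5.32% with NaPr and 37.1% with NaBu. The CIP/KIP genes had 46 regions, of which 31 were tested with NaPr (1 higher and 3 lower, 12.9% called, median -1.65 points) and 30 with NaBu (4 higher and 0 lower, 13.3% called, 8 at an unadjusted p below 0.05, median 0.11). The INK4 genes had 22 regions, with 0 higher and 1 lower of 13 tested with NaPr (7.69%, median -4.60) and 1 higher and 3 lower of 16 with NaBu (25%, median -3.30). The D cyclin genes had 58, with 2 higher and 4 lower of 44 tested with NaPr (13.6%, median -2.61) and 9 higher and 5 lower of 35 with NaBu (40%, median 0.06). By rank 9 of the 35 D cyclin regions were called higher with NaBu and 5 lower, against 24% and 13.1% of all regions. The tag scale called 0 of the 24 D cyclin regions with a value higher and 12 lower, against 24.4% and 28.6% of all regions with a value. With NaBu it called 1 of 16 CIP/KIP regions higher and 5 lower, and 0 of 12 INK4 regions higher and 11 lower. With NaPr it called 1 of 19 CIP/KIP regions higher and 10 lower, 0 of 11 INK4 regions higher and 6 lower, and 2 of 31 D cyclin regions higher and 7 lower. The shares of all regions on this scale were 12.2% higher and 19.8% lower with NaPr. With ties the lower calls with NaPr were 6 for the CIP/KIP genes, 3 for the INK4 genes and 6 for the D cyclins, against 1, 0 and 3 higher. With NaBu ties gave 4 higher and 1 lower, 1 higher and 7 lower, and 8 higher and 9 lower for the families in that order. Over all regions, ties gave 4.82% higher and 4.57% lower with NaPr, and 19.1% higher and 18.1% lower with NaBu.

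CDKN1A (ENSG00000124762.14, chr6:36676460-36687337, plus strand) encodes p21, which inhibits cyclin-CDK complexes and is a target of p53. The paper's read-based ATAC-seq analysis names CDKN1A among the sites that became less accessible with NaPr. Its main text does not say where at the gene that site lies. Its start lay in a region of high rank, chr6:36678324-36680775, which covered the printed promoter and the 5′ UTR. This region ranked at 86.6, 89.9 and 83.5 in the untreated libraries and 85.3, 85.8 and 78.6 with NaPr. In the NaBu experiment it ranked at 89.6, 89.5 and 87.7 untreated and 91.8, 86.7 and 88.1 with NaBu. The groups overlapped in both experiments and neither change was called: it was -3.43 points with NaPr (SE 2.24, adjusted p = 0.370) and -0.02 points with NaBu (SE 1.37, adjusted p = 0.994). On the tag scale, the start was called lower with both: the log2 difference in summit tags was -0.58 with NaPr (SE 0.12, adjusted p = 8.39e-05) and -0.31 with NaBu (SE 0.10, adjusted p = 0.0175). With tags scaled by the background the NaPr difference was not called (-0.46, adjusted p = 0.363), while that with NaBu was (-0.33, adjusted p = 0.0267). The median-scaled tags put the starts of all protein-coding genes lower as a group, with median differences of -0.27 and -0.33 and 44.8% and 59.9% of them called lower.

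Away from the start, 2 of the 10 tested CDKN1A regions were called lower with NaPr by limma, and 5 passed an unadjusted p below 0.05. With NaBu 0 were called and 1 passed the unadjusted p. The larger fall was in the intron region 3.65 kb downstream of the start, chr6:36682360-36683071, whose summit sequence is printed above. It ranked at 60.8, 64.2 and 64.9 in the untreated libraries and had no peak in any of the 3 NaPr libraries. All untreated libraries listed it and no treated one did, a fall of 63.3 points (SE 10.6, adjusted p = 0.0109). Its untreated summits held 39, 75 and 99 tags. In the NaBu experiment the same region was at 20.6, 0 and 8.01 untreated and 0 in the treated libraries (adjusted p = 0.204), and the summits of the 2 untreated libraries that listed it held 79 and 53 tags. The second, 15.2 kb upstream at chr6:36662400-36663475, ranked at 79.0, 74.8 and 78.6 untreated and 60.1, 58.0 and 59.4 with NaPr. Its groups stood well apart, with a fall of 18.3 points (SE 3.37, adjusted p = 0.0155), while in the NaBu experiment the values were 33.5, 38.5 and 32.5 untreated and 46.9, 50.01 and 32.0 treated (adjusted p = 0.341). The intron call was lost without untreated library 2 or 3 or treated library 2 or 3 (adjusted p = 0.0529, 0.0675, 0.0590 and 0.0656), and the upstream one when any library but treated 1 was left out (0.0537 to 0.0898). Both were lost when ranks were taken from the fold (0.124 and 0.108). That ranking called 0 of all 124067 regions with NaPr, so it cannot tell these calls from others. Both falls were called with unlisted regions tied (0.00296 and 0.00774) and with lists of equal length (0.00933 and 0.0158). The upstream one was also called on the tag scale (a log2 difference of -0.96, adjusted p = 1.42e-05), where the intron had no value. Background-scaled tags kept 0 of the 7 NaPr calls with a value. The other NaPr regions that passed the unadjusted p were not called. Those 1.33 and 13.9 kb upstream were unlisted in the untreated libraries of that experiment and listed in all treated ones. Their changes were 21.5 and 18.0 points (SE 8.60 and 7.23, adjusted p = 0.165 and 0.167). The region 12.4 kb downstream changed by -27.0 points (SE 11.7, adjusted p = 0.198). The region that passed the unadjusted p with NaBu lay 0.488 kb upstream of the start, at chr6:36678148-36678226. It was unlisted in the untreated libraries of the NaBu experiment and at 33.5, 6.1 and 19.65 with NaBu. The rise of 19.7 points missed the threshold (SE 6.88, adjusted p = 0.0530). With unlisted regions tied it was called (19.25 points, adjusted p = 0.0437), but not with lists of equal length (6.55 points, adjusted p = 0.358).

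CDKN1B (ENSG00000111276.12, chr12:12685498-12722369, plus strand) encodes p27, which holds CDK2 inactive in resting cells. Its start region, chr12:12716071-12718382, ranked at 85.3, 85.4 and 84.3 untreated and 87.4, 77.3 and 85.4 with NaPr, and at 92.3, 89.8 and 94.7 untreated and 93.4, 91.3 and 90.4 with NaBu. The groups overlapped in both, with changes of -1.65 points (SE 2.33, adjusted p = 0.698) and -0.56 points (SE 1.32, adjusted p = 0.757). As at CDKN1A, the tag scale called the start lower, by -0.32 with NaPr (adjusted p = 0.0364) and -0.53 with NaBu (adjusted p = 0.000163), and background-scaled tags called it with NaBu (-0.55, adjusted p = 0.000312) but not with NaPr (-0.19, adjusted p = 0.777).

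The largest rise at any of the genes was 12.8 kb upstream of the CDKN1B start, in a part of the gene body used only by longer transcripts, chr12:12703522-12704525. It was at 0, 0 and 9.33 in the untreated libraries of the NaBu experiment and at 67.5, 66.6 and 72.0 with NaBu. Only 1 untreated library listed it, near the bottom of its list, and the rise was 65.6 points (SE 5.76, adjusted p = 0.000342), 0.00238 to 0.00471 when 1 library was left out. Its treated summits held 72, 73 and 84 tags against 21 in the untreated library that listed it. With summit windows in place of whole peaks the rise was 16.0 points (adjusted p = 0.000739), as the windows of this region and its neighbour are then joined. That neighbour, 12.3 kb upstream at chr12:12704642-12705058, ranked at 70.8, 78.0 and 73.7 untreated and 87.6, 89.0 and 88.3 with NaBu. Every treated value was above every untreated one, a rise of 14.2 points (SE 1.87, adjusted p = 0.00110) that also held on the tag scale (a log2 difference of 0.81). In the NaPr experiment these regions were at 11.9, 0 and 0 untreated and 32.4, 0 and 1.05 treated (adjusted p = 0.678), and at means of 65.1 and 73.3 (adjusted p = 0.309).

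Another region upstream of CDKN1B rose with both acids. It lies 23.7 kb from the start, at chr12:12693108-12693701, inside the bodies of CDKN1B and of GPR19, an orphan receptor gene. It ranked at 72.3, 64.7 and 63.1 untreated and 81.5, 79.1 and 85.1 with NaPr, and in the NaBu experiment at 0 in all untreated libraries and 24.2, 29.0 and 38.9 treated. The groups were apart in both, with a rise of 15.2 points with NaPr (SE 3.13, adjusted p = 0.0234) and 30.7 points with NaBu (SE 5.52, adjusted p = 0.00370). The only called fall at CDKN1B was with NaPr, 1.56 kb upstream of the start at chr12:12715364-12715805, from 51.4, 54.2 and 39.5 untreated to 0, 0 and 1.40 treated. It fell by 47.9 points (SE 10.9, adjusted p = 0.0324), but changed by -1.81 points (adjusted p = 0.690) with summit windows, which join it to the start region. Both NaPr calls were lost when single libraries were left out, the fall without any 1 of the 6 (adjusted p = 0.0545 to 0.0924) and the rise without any library but untreated 1 (0.0773 to 0.0979). The NaPr rise was called on the tag scale (a log2 difference of 0.69, adjusted p = 0.00118), but not with tags scaled by the background. The NaBu rise missed the threshold with lists of equal length (0.0542). The map of CDKN1A and CDKN1B places these regions.

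**Figure D3:**
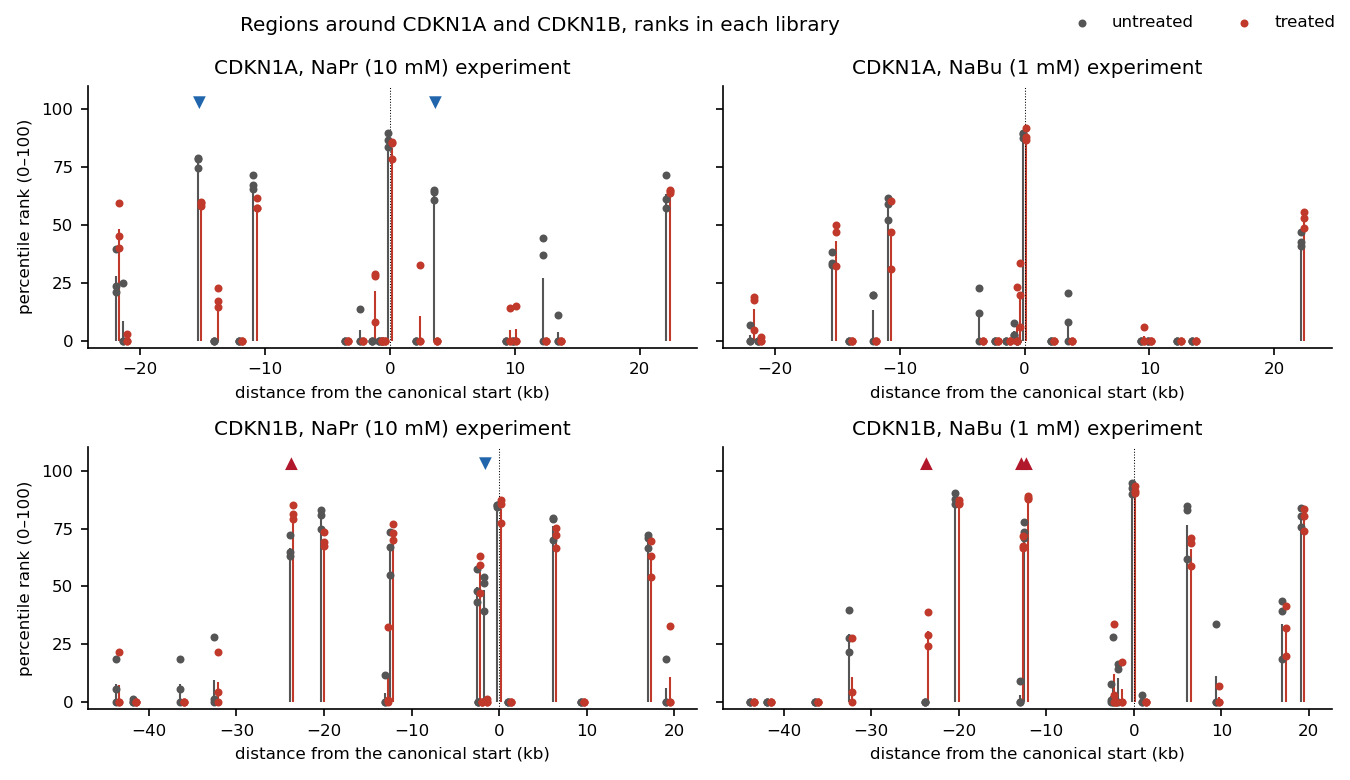
Percentile rank (0 to 100) of every region against its distance from the canonical start in kb (positive in the direction of the gene) at CDKN1A and CDKN1B, in the NaPr experiment on the left and the NaBu experiment on the right; points are libraries (grey untreated, red treated), stems the group means, and triangles mark regions called higher (up, red) or lower (down, blue) by limma. The starts of both genes carry no triangle; the marked regions lie 1.56 to 23.7 kb upstream or 3.65 kb downstream.

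CDKN1C (ENSG00000129757.15, chr11:2883213-2885775, minus strand) encodes p57, an imprinted inhibitor that restrains growth in the embryo. Its start region, chr11:2884330-2886073, ranked at 53.0, 56.4 and 45.1 untreated and 61.8, 62.9 and 74.4 with NaBu. The treated libraries were all above the untreated ones, a rise of 14.9 points (SE 4.87, adjusted p = 0.0420). This call was not stable: it missed the threshold without any 1 of the 6 libraries (adjusted p = 0.0519 to 0.136) and with unlisted regions tied (0.102), and the log2 tag difference was 0.34 (adjusted p = 0.0555). With NaPr the same region ranked at 80.8, 80.1 and 80.7 untreated and 88.0, 84.1 and 77.2 treated, with overlapping groups and a change of 2.54 points (SE 2.49, adjusted p = 0.560). No CDKN1C region was called with NaPr by limma, and 4 of 8 passed an unadjusted p below 0.05. The untreated start thus stood at a mean of 80.5 in one experiment and 51.5 in the other.

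CDKN2A (ENSG00000147889.18, chr9:21967752-21995301, minus strand) encodes 2 unrelated proteins from separate first exons, the CDK4/6 inhibitor INK4A (p16) and ARF (p14), which protects p53 by binding MDM2. The region at the ARF start, chr9:21993556-21996228, which CDKN2B-AS1 also overlaps and which holds the printed ARF promoter, was lower in treated libraries in both experiments. It ranked at 89.0, 85.2 and 87.1 untreated and 81.7, 79.0 and 77.3 with NaPr. In the NaBu experiment it ranked at 91.4, 89.0 and 88.7 untreated and 83.0, 78.2 and 81.4 treated. No treated value reached an untreated one in either experiment: the rank fell by 7.77 points with NaPr (SE 1.81, adjusted p = 0.0350) and fell by 8.84 points with NaBu (SE 1.47, adjusted p = 0.00272). On the tag scale the log2 differences were -0.62 (adjusted p = 5.23e-05) and -0.81 (adjusted p = 4.75e-06), and with tags scaled by the background they were -0.49 (adjusted p = 0.316) and -0.82 (adjusted p = 3.12e-06). The NaPr call was lost without any 1 library (adjusted p = 0.0593 to 0.118), whereas the NaBu call was kept (0.00637 to 0.0162). Ranked by fold, the changes were -10.1 (adjusted p = 0.316) and -9.23 points (0.102), so neither was called. That ranking called 0 of all regions with NaPr, but 20205 higher and 12563 lower of 123730 with NaBu.

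A small region just beyond it, chr9:21996573-21996711, was unlisted in the untreated libraries of the NaBu experiment and at 21.5, 16.1 and 15.6 with NaBu. Its rise of 17.7 points (SE 4.28, adjusted p = 0.0129) was a fall of 9.41 points with summit windows, which join it to the ARF region, so its direction depended on where the region was cut. The CDKN2B start (ENSG00000147883.12, chr9:22002903-22009305, minus strand), which gives p15, was in the region chr9:22008633-22009769. It ranked at 96.6, 96.9 and 97.0 untreated and 96.3, 95.6 and 94.8 with NaPr, and 98.6, 98.6 and 97.6 untreated and 97.2, 97.4 and 98.2 with NaBu. The changes of -1.24 points (SE 0.76, adjusted p = 0.341) and -0.67 points (SE 0.53, adjusted p = 0.339) were not called. On the tag scale this start was called lower with both, by -0.32 (adjusted p = 0.0121) and -0.28 (adjusted p = 0.00857). Of the starts not called by rank, median-scaled tags called 4 with NaPr and 5 with NaBu, and background-scaled tags called 0 and 5.

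CDKN2C (ENSG00000123080.12, chr1:50960745-50974634, plus strand) encodes p18 and CDKN2D (ENSG00000129355.7, chr19:10566460-10569059, minus strand) p19, both CDK4/6 inhibitors of the INK4 family. The CDKN2C start, chr1:50968846-50970528, ranked at 81.3, 79.4 and 76.1 untreated and 84.0, 79.0 and 72.8 with NaPr, and at 82.0, 81.5 and 78.3 untreated and 78.7, 77.3 and 79.9 with NaBu. Groups overlapped, with changes of -0.37 points (SE 2.86, adjusted p = 0.953) and -1.99 points (SE 1.59, adjusted p = 0.342). The tag scale called the CDKN2C start lower with NaBu (-0.49, adjusted p = 0.000973) but not with NaPr (-0.17, adjusted p = 0.323). By rank the only called CDKN2C region was 9.43 kb upstream at chr1:50959301-50960812, which is also the start of FAF1, the gene of a protein that binds the death receptor Fas. It was at 95.8, 93.9 and 94.2 untreated and 92.5, 89.8 and 89.0 with NaBu, a fall of 4.22 points (SE 1.04, adjusted p = 0.0139) that was lost without untreated library 1 (0.0588) or treated library 2 (0.0619) or 3 (0.0548).

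The CDKN2D start, chr19:10568458-10569776, ranked at 97.2, 96.0 and 97.3 untreated and 93.8, 93.7 and 92.3 with NaBu. These groups did not overlap, and the fall was 3.57 points (SE 0.70, adjusted p = 0.00524). It was called with unlisted regions tied (-3.39 points, adjusted p = 0.00292) and on the tag scale (a log2 difference of -0.70, adjusted p = 4.33e-06). A ranking by fold gave -0.01 points (adjusted p = 0.997). With NaPr it ranked at 94.7, 94.5 and 95.4 untreated and 97.1, 96.6 and 91.7 treated. The treated values lay on both sides of the untreated ones, with a change of 0.30 points (SE 1.30, adjusted p = 0.912). Neither CDKN2C nor CDKN2D had a region called with NaPr by limma, with 3 of 4 and 1 of 7 at an unadjusted p below 0.05.

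CCND1 (ENSG00000110092.4, chr11:69641156-69654474, plus strand) encodes cyclin D1, a growth-factor-responsive cyclin and a target of the Wnt pathway that drives most colorectal cancers. Its start region, chr11:69640719-69641572, ranked at 80.8, 82.0 and 82.9 untreated and 73.3, 76.3 and 77.5 with NaBu. The treated libraries were all lower, and the start fell by 6.196 points (SE 1.64, adjusted p = 0.0188), with a log2 tag difference of -0.62 (adjusted p = 1.1e-05). The rank call was lost without untreated library 2 (0.0537) or 3 (0.0635), by fold (0.281) and in a fit over all 12 libraries (0.285). With NaPr the start was at 62.7, 53.9 and 45.1 untreated and 44.1, 52.5 and 40.7 treated, with overlapping groups and a change of -8.14 points (SE 8.03, adjusted p = 0.562). Of its tested regions 1 was higher and 4 lower of 13 with NaPr, and 4 higher and 2 lower of 9 with NaBu.

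With NaPr 2 of the 4 falls at CCND1 lay in introns. The intron region 3.06 kb downstream of the start, chr11:69644213-69644828, whose summit is printed above, ranked at 60.8, 58.6 and 57.9 untreated and 9.47, 0 and 0 treated. Only 1 treated library listed it, a fall of 56.0 points (SE 10.8, adjusted p = 0.0185), and no library of the NaBu experiment did. The summit held 80, 143 and 181 tags untreated and 66 in the treated library that listed it, and by fold the change of the region was -0.75 points (adjusted p = 0.870). A neighbour 4.19 kb downstream, chr11:69645346-69645654, was at 50.3, 42.5 and 36.9 untreated and unlisted with NaPr, a fall of 43.2 points (SE 10.4, adjusted p = 0.0396) that was -0.05 points by fold (adjusted p = 0.993) and also unlisted in the NaBu experiment. The first call was lost without untreated library 2 or 3 or treated library 2 or 3 (adjusted p = 0.0690 to 0.0789), the second without any 1 library (0.0584 to 0.102).

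Upstream of CCND1, 3 regions were called in at least 1 experiment. The region 2.58 kb upstream, chr11:69636319-69638580, was at 89.8, 89.1 and 90.5 untreated and 84.3, 85.2 and 84.1 with NaPr, and at 60.9, 60.0 and 59.2 untreated and 73.7, 67.9 and 71.4 with NaBu. It fell by 5.29 points with NaPr (SE 1.24, adjusted p = 0.0356) and rose by 10.97 points with NaBu (SE 2.80, adjusted p = 0.0162), the only region at the 10 genes called in opposite directions; the difference between the experiments was not tested. The NaPr call was lost without any 1 library (adjusted p = 0.0692 to 0.116), the NaBu call with unlisted regions tied (0.0705), and the NaBu log2 tag difference was -0.04 (0.755). The next, 1.62 kb upstream at chr11:69638974-69639533, ranked at 75.7, 76.6 and 81.4 untreated and 83.8, 85.3 and 84.2 with NaBu, a rise of 6.55 points (SE 1.73, adjusted p = 0.0188) against a log2 tag difference of -0.14 (adjusted p = 0.186). This call was lost without untreated library 1 or 2 or treated library 2 or 3 (adjusted p = 0.0583 to 0.0720). In the NaPr experiment the same region was at 71.4, 73.3 and 75.4 untreated and 81.7, 80.1 and 75.4 treated, a change of 5.69 points in the same direction that was not called (SE 2.55, adjusted p = 0.210).

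Farther out, 10.6 kb upstream at chr11:69629687-69630535, a region was unlisted in the untreated libraries of the NaBu experiment and at 39.2, 27.1 and 38.8 with NaBu, a rise of 35.0 points (SE 5.53, adjusted p = 0.00218). In the NaPr experiment it was at 25.7, 33.3 and 41.9 untreated and 73.5, 61.4 and 55.8 treated. Those groups did not overlap either, but the rise of 29.9 points missed the threshold (SE 8.53, adjusted p = 0.0652). This NaPr rise was called with unlisted regions tied (24.2 points, adjusted p = 0.0439) and on the tag scale (a log2 difference of 1.17, adjusted p = 2.45e-05). With lists of equal length it was not called (35.8 points, adjusted p = 0.0576). Beyond the gene, 28.9 kb from the start at chr11:69670085-69670561 in the body of the neighbouring gene LTO1, a region rose in rank in both experiments. It went from 83.8, 79.5 and 81.1 to 90.8, 88.3 and 87.1 with NaPr (7.26 points, SE 1.67, adjusted p = 0.0341) and from 63.2, 65.3 and 62.4 to 71.2, 78.5 and 80.6 with NaBu (13.1 points, SE 2.90, adjusted p = 0.00885). The wide region at the end of CCND1, chr11:69653973-69658463, which covers its 3′ UTR and the start of LTO1, fell in both. It went from 97.4, 97.1 and 96.7 to 89.7, 89.3 and 95.3 with NaPr (a fall of 5.64 points, SE 1.41, adjusted p = 0.0438) and from 88.2, 88.3 and 89.2 to 81.3, 80.5 and 85.0 with NaBu (a fall of 6.30 points, SE 1.35, adjusted p = 0.00792). In each of these comparisons the groups were apart. On the tag scale the region in LTO1 was called in neither experiment (0.14, adjusted p = 0.396, and 0.19, adjusted p = 0.212), and the end of CCND1 was called with NaBu (-0.46, adjusted p = 0.000280) but not with NaPr (-0.18, adjusted p = 0.123). The NaPr rise in LTO1 was lost without any library but untreated 1 (adjusted p = 0.0751 to 0.118) and the NaPr fall without any 1 library (0.0563 to 0.15).

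CCND2 (ENSG00000118971.9, chr12:4269771-4305353, plus strand) encodes cyclin D2. At its start, chr12:4273445-4273960, the ranks were 50.6, 59.7 and 50.5 untreated and 53.9, 60.0 and 51.0 with NaPr, nearly the same in the groups (1.40 points, SE 6.52, adjusted p = 0.920). With NaBu they were 78.9, 80.0 and 79.2 untreated and 76.2, 69.3 and 75.0 treated. The treated values were lower without overlap, but the change of -5.86 points missed the threshold (SE 2.12, adjusted p = 0.0599). On the tag scale the start was called lower with NaBu (a log2 difference of -0.52, adjusted p = 0.000169). The rank change passed with unlisted regions tied (-6.79 points, adjusted p = 0.0233). With summit windows the value was 4.05 points (adjusted p = 0.00387), a rise, since the start then joins the region next to it. That region, 0.50 kb upstream at chr12:4271664-4273265, which lies in CCND2-AS1 and, like the start, within 1 kb of the start of the protein-coding ENSG00000285901, rose with NaBu. It ranked at 93.2, 93.5 and 95.3 untreated and 97.0, 97.8 and 97.6 treated, a rise of 3.45 points (SE 0.69, adjusted p = 0.00583), with a log2 tag difference of 0.00 (adjusted p = 0.993).

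Another 2 CCND2 regions rose in rank with NaBu, and 0 of 12 were called with NaPr by limma, where 0 also passed an unadjusted p below 0.05. The intron region 3.01 kb downstream of the start, chr12:4276769-4277213, was at 54.3, 58.7 and 66.3 untreated and 71.3, 73.5 and 72.5 treated. All treated values were higher, by 12.7 points on average (SE 3.49, adjusted p = 0.0222), and the call was lost without any library but untreated 3 (0.0527 to 0.0765) and on the tag scale (a log2 difference of 0.055, adjusted p = 0.674). At chr12:4307645-4308904, the start of TIGAR, a p53-responsive regulator of glycolysis, ranks went from 74.8, 74.9 and 76.7 to 82.6, 81.7 and 82.1, a rise of 6.64 points (SE 1.41, adjusted p = 0.00745), with a log2 tag difference of 0.17 that was not called (adjusted p = 0.235).

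CCND3 (ENSG00000112576.13, chr6:41934934-42050357, minus strand) encodes cyclin D3 and has the longest window, because some of its transcripts start far upstream. Its canonical start, chr6:41940369-41942562, holds the printed promoter. It ranked at 87.9, 87.0 and 88.4 untreated and 82.2, 76.4 and 74.9 with NaBu. The groups were well apart, with a fall of 9.99 points (SE 1.898, adjusted p = 0.00468) and a log2 tag difference of -0.85 (adjusted p = 7.71e-06), the largest called fall of a start among the 10 genes by rank; by fold the adjusted p was 0.0575. With NaPr the start was at 90.7, 91.1 and 88.2 untreated and 90.9, 88.7 and 88.4 treated, with overlapping groups and a change of -0.65 points (SE 1.25, adjusted p = 0.784).

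The only NaPr call at CCND3 was a rise 4.94 kb inside the gene, chr6:41935694-41936866, over a coding exon and the 3′ UTR. It went from 83.1, 77.9 and 79.2 to 91.9, 88.6 and 89.6, without overlap (9.97 points, SE 1.74, adjusted p = 0.0126), and was lost without any library but untreated 1 (0.0651 to 0.0811) and on the tag scale (0.29, adjusted p = 0.0626). In the NaBu experiment it was at 56.1, 61.5 and 64.4 untreated and 66.6, 72.5 and 62.9 treated, with overlap (adjusted p = 0.186). With NaBu the largest fall was 68.1 kb upstream, in the part of the gene body used by longer transcripts, at chr6:42009881-42010859, from 58.2, 63.6 and 71.4 to 36.6, 37.6 and 22.1. This fall of 32.3 points (SE 6.19, adjusted p = 0.00485) was called under every alternative run, with a log2 tag difference of -1.18.

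The other NaBu calls at CCND3 lay toward its far upstream starts. The region 106 kb upstream, chr6:42048071-42049119, went from 74.0, 70.6 and 63.9 to 55.2, 52.2 and 32.4. It fell by 22.9 points (SE 6.32, adjusted p = 0.0224), a call that was lost without untreated library 1 (0.0927) or 2 (0.0761). Its neighbour 108 kb upstream, chr6:42050078-42051053, at the start of TAF8, a subunit gene of the TFIID complex, went from 84.7, 81.0 and 80.5 to 89.7, 89.7 and 88.9, a rise of 7.35 points (SE 1.31, adjusted p = 0.00354). The ranks of each were without overlap between groups. On the tag scale the fall was called (a log2 difference of -0.82, adjusted p = 0.000193) and the rise at TAF8 was not (0.17, adjusted p = 0.232). The region 80.6 kb upstream, chr6:42022425-42022946, was at 10.1, 0 and 0 untreated and 18.8, 39.7 and 35.9 treated, a rise of 28.1 points (SE 6.94, adjusted p = 0.0142) that was lost without untreated library 2 (0.0533) or 3 (0.0539). The map of the D cyclin genes shows these regions beside those that were not called.

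**Figure D4:**
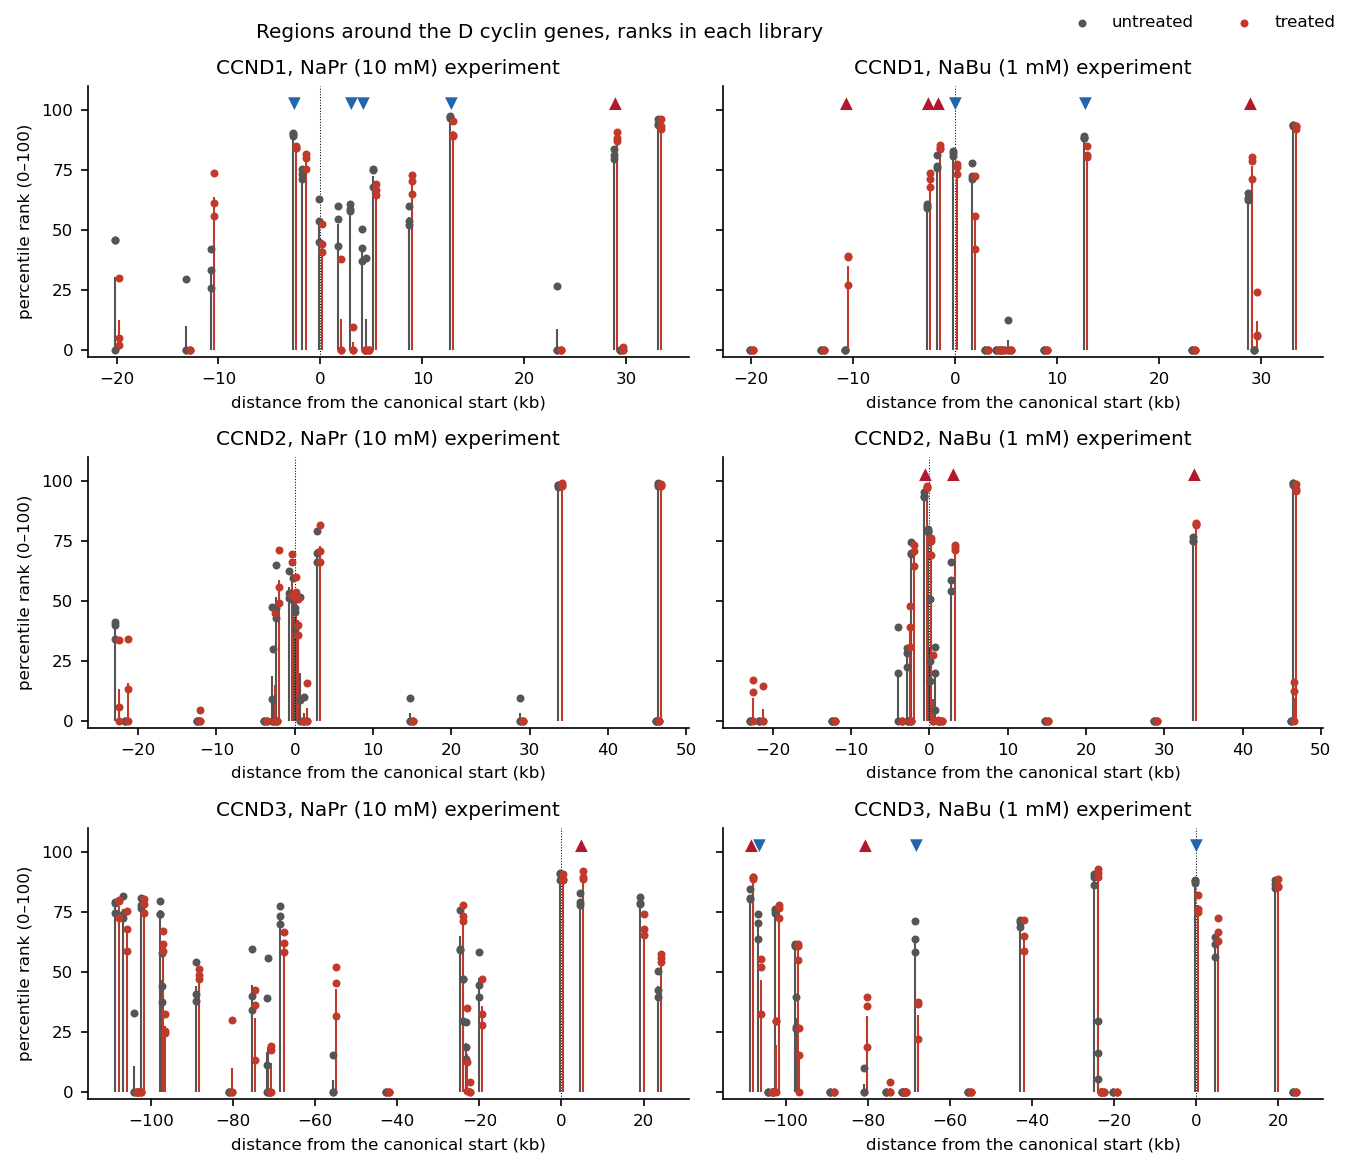
Percentile rank (0 to 100) of every region against its distance from the canonical start in kb (positive in the direction of the gene) at CCND1, CCND2 and CCND3, in the NaPr experiment on the left and the NaBu experiment on the right; points are libraries (grey untreated, red treated), stems the group means, and triangles mark regions called higher (up, red) or lower (down, blue) by limma. The CCND1 introns at 3.06 and 4.19 kb were listed in untreated libraries of the NaPr experiment and in no library of the NaBu experiment.

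Of the 126 regions, 47 had a peak in all 12 libraries, 20 in only 1, and 65 were tested in both experiments. In both, 5 were called: the ARF start of CDKN2A and the end of CCND1 were lower with each acid, the regions 23.7 kb upstream of CDKN1B and 28.9 kb downstream of the CCND1 start were higher with each, and the region 2.58 kb upstream of CCND1 differed in direction. The untreated libraries are separate in the experiments, so these comparisons share no samples, but the doses and dates differ. Among the called regions, 2 of the NaPr falls had no peak in any treated library and 3 of the NaBu rises none in any untreated library. The counts of this paragraph were not made over all regions, so no such share can be set beside them.

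The other genes of the G1/S pathway, a list of 17 (CDK2, CDK4, CDK6, CCNE1, CCNE2, CCNA2, RB1, RBL1, RBL2, E2F1 to E2F5, TFDP1, CDC25A and SKP2), had 247 regions in windows of the same kind. With NaPr 129 of these were tested, 5 called higher and 8 lower (10.1%, against 5.32% of all regions), with a median change of -0.96 points. With NaBu 126 were tested, 24 higher and 21 lower (35.7%, against 37.1%), with a median of 0.40 points. With ties the counts were 8 higher and 15 lower with NaPr and 20 higher and 25 lower with NaBu, and on the tag scale 12 of 82 were higher and 28 lower with NaPr and 11 of 85 higher and 44 lower with NaBu. Of the 17 starts, 3 were called with NaPr and 4 with NaBu, all lower. Of all regions that hold a protein-coding start, 5.76% and 20.7% were called lower. A start on this list was the region over it or, with none, the nearest within 1 kb. That of E2F2, an activating E2F gene, fell with both, from a mean of 55.5 to 10.3 with NaPr (SE of the change 10.98, adjusted p = 0.0403) and from 49.8 to 2.3 with NaBu (SE 5.63, adjusted p = 0.000765). The start of TFDP1, the partner of E2F factors on DNA, fell with both as well, from 95.4 to 83.3 (SE 1.70, adjusted p = 0.00539) and from 52.5 to 27.8 (SE 6.74, adjusted p = 0.0215). The start of RB1 fell by 6.86 points with NaBu (SE 1.45, adjusted p = 0.00746), while with NaPr its change was -3.15 points (SE 0.86, adjusted p = 0.0569). The start of E2F4 fell by 10.3 points with NaBu (SE 1.64, adjusted p = 0.00223) and that of E2F5 fell by 7.09 points with NaPr (SE 1.55, adjusted p = 0.0286). The alternatives for these starts were added after their values were seen. The NaPr calls were lost without any 1 library at E2F2 (adjusted p = 0.0716 to 0.114) and E2F5 (0.0598 to 0.121) and at TFDP1 without any library but untreated 1 or treated 2 (up to 0.0715). With NaBu the call at TFDP1 was lost without any library but untreated 3 or treated 1 (up to 0.0698), and those at E2F2, E2F4 and RB1 were kept. A ranking by fold kept the call only at E2F2 with NaBu (adjusted p = 0.00952), and with NaPr that ranking called 0 of all regions. On the tag scale each of these starts with a value was called lower, while background-scaled tags lost E2F5 with NaPr (-0.49, adjusted p = 0.328). No start of a CDK or an E cyclin gene on this list was called in either experiment, with adjusted p-values from 0.091 upward.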

How the data were processed

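The 12 SW480 ATAC-seq libraries (4 groups of 3) were analysed; the mouse CT26 libraries were not used here. The authors deposited 1 MACS2 peak list per library, with the summit's fold enrichment (a ratio), -log10 p and -log10 q. The submitters' processing notes name bcl2fastq 2.17.1, cutadapt 1.9.1, Bowtie2 2.3.1, MACS2 2.1.0 and hg38. The study's methods used DiffBind on reads; reads were not used here, so no count model was fitted.

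Peaks of the 12 lists were merged where they shared at least 1 bp. Each region took its highest -log10 p in a library and was ranked from 0 to 100 among that library's listed regions, with unlisted regions at 0. Regions with a peak in at least 2 of an experiment's 6 libraries were tested with limma 3.58.1 (R 4.3.3; trended eBayes, two-sided, Benjamini-Hochberg over all regions, called below 0.05), 1 fit per experiment. Gene bodies, starts and parts are from GENCODE 44, and distances run from a region's nearest edge to the canonical start. Tables were made with Python 3.11.15 and pandas 2.3.3. The scripts were tested on simulated data.

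Named regions were each gene's start region, the ARF start, and the called region with the largest rise and fall per gene and experiment; all further called regions described were chosen after their values were seen. The genes and lists were chosen with earlier results of these data known. Alternatives changed the region definition, ranking value, treatment of unlisted regions, list length, q threshold (-log10 q of at least 2), filter, window (5 or 50 kb), fit, replicates, and the measure: summit tags recovered from fold and p (log2 after adding 1, regions listed in all 6 libraries). Untreated and treated libraries of the same number deviated together very little (correlations of 0.0049 to 0.031 over regions). For libraries of unlike number the correlations were -0.029 to 0.012. The numbers were not taken to pair the libraries. The sequence of 1 region is not reported here.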

Additional observations from a re-analysis of the deposited data

How the results depend on the processing

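The called regions at the 10 genes were counted again under each alternative. With NaPr (3 higher, 8 lower), a ranking by fold called 0 higher and 0 lower by limma (6 and 10 at an unadjusted p below 0.05), and 0 of all 124067 regions (20921 unadjusted). Regions listed in at least 1 library gave 0 (8 unadjusted) and 2, a fit over 12 libraries 6 and 13, and tags scaled by the background 1 and 0 (2 unadjusted). Over all regions these gave 791 and 522 of 202576, 10750 and 7379 of 124067, and 3013 and 466 of 65178. Lower calls at the 10 genes were 15 with ties, 14 with the top 100000 intervals, 5 with regions listed in all 6 libraries and 23 with tags scaled by the median. Over all regions 5027 of 100871 were lower with the top 100000 intervals and 3083 of 65178 with regions listed in all 6 libraries. Leaving out 1 library gave 0 to 3 higher and 0 to 4 lower (6 to 12 and 19 to 23 unadjusted). With NaBu (14 higher, 8 lower), the counts were 8 and 5 by fold, 9 and 14 with the top 100000 intervals, 1 and 28 with tags scaled by the median, 1 and 27 with tags scaled by the background, and 25 and 15 in windows of 50 kb. Ties gave 17 lower and regions listed in all 6 libraries 9 higher. Over all regions the fold called 20205 higher and 12563 lower of 123730, and the top 100000 intervals 19989 and 18948 of 103741. Background-scaled tags called 16424 and 20071 of all 72559, and regions listed in all 6 libraries gave 19483 higher of 72559. The number tested in windows of 50 kb is not given here. Leaving out 1 library gave 10 to 15 higher and 8 to 11 lower. The replicate block, whose numbers were not taken to pair the libraries, gave 3 higher and 11 lower with NaPr and 17 higher and 11 lower with NaBu. Over all regions it called 4402 higher and 3245 lower with NaPr, and 30508 higher and 17248 lower with NaBu. Of the called regions it moved only the CCND1 intron 4.19 kb downstream past the threshold (adjusted p = 0.0563).

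Signs turned at starts that were not called. With NaPr these were CDKN1A by fold (1.62 points), CDKN1B without 1 library (-3.65 to 1.37), CDKN1C on median-scaled tags (-0.033 on the log2 scale), CDKN2C with a q threshold (0.39) and without 1 library (-3.08 to 2.53), CDKN2D on tags (-0.19 by the median, -0.061 by the background) and without 1 library (-0.69 to 2.02), CCND1 on background-scaled tags (0.059), CCND2 by fold (-3.83), with the top 100000 intervals (-0.0073) and without 1 library (-1.12 to 4.47), and CCND3 by fold (2.92). With NaBu these were CDKN1A with summit windows (0.30), by fold (4.54) and without 1 library (-1.48 to 1.07), CDKN1B by fold (12.1) and without 1 library (-1.79 to 0.65), CDKN2C by fold (5.77), and CCND2 with summit windows (4.05). Among called regions, the one beyond the ARF start became -9.41 points with summit windows, and on tags scaled by the median and by the background the CCND1 regions 2.58 and 1.62 kb upstream became -0.042 and -0.056, and -0.14 and -0.16; that next to the CCND2 start became -0.013 on background-scaled tags. The cause of these changes was not tested.

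Without reads, depth enters only through list length and summit tags, and regions missing from a list include any just below its end. With 3 libraries per group, changes of a few points in regions of middle rank were within the spread.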
